A study of Drosophila melanogaster with 12 samples.

Results

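The muscle glutamate receptor of the Drosophila melanogaster larva was followed through its 5 subunit genes, GluRIIA, GluRIIB, GluRIIC, GluRIIE and KaiRIA, the last being the older symbol of GluRIID. They were taken by name from the gene column of the deposited tables, split on commas, and they occupy 4 of the 13650 rows of each table, which together name 13939 genes. GluRIIA stands in a row with CG14017, and GluRIIE stands in a row with KaiRIA, so those rows are given here as the GluRIIA row and the GluRIIE,KaiRIA row. Reads of the genes joined in a row could not be separated. All 4 rows passed the filter on low values in both tables.

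The motor neurons of fly larvae release glutamate onto body wall muscle, and the muscle answers through ionotropic receptors clustered opposite the release sites. Each receptor is a tetramer that needs GluRIIC, GluRIID and GluRIIE and takes either GluRIIA or GluRIIB as its remaining subunit. Receptors with GluRIIA desensitise more slowly and pass larger synaptic currents than those with GluRIIB, and GluRIIA and GluRIIB compete for a place in the complex. Loss of any essential subunit removes the whole receptor from the synapse.

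RNA was sequenced from carcass, the muscle and epidermis left after the gut was taken out, of late foraging larvae of the third instar, in 12 libraries that form 4 groups of 3. The smox larvae had the genotype Smox(Smad2)F4/Y an allele of Smox, the Smad of the Activin pathway, carried in every tissue and not in muscle alone. They were male by genotype, and the labels leave the sex of their w1118 reference unstated. Smox and w1118 larvae were reared on yeast paste over apple juice plates, with no treatment. The baboACT larvae had the genotype tub-Gal80ts/+;MhcGal4/baboACT, in which the muscle myosin driver MhcGal4 expresses an activated form of the Activin receptor Baboon. Their reference, MhcGal4, was tub-Gal80ts/+;MhcGal4/+, and so these groups both carried the driver and the temperature-sensitive Gal4 inhibitor. Both ate vial food and were held at 30 °C for 12 h before RNA was taken. Per the design text, the comparisons ask which carcass transcripts depend on Smox and which respond to the activated receptor.

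The tables hold 1 FPKM (fragments scaled by transcript length and by sequencing depth) per gene and group, made from 3 libraries. No spread between libraries could be computed, so no value has an SD and the depth is unknown. A gene is said to have risen or fallen only where the authors' deposited table gives it a q below 0.05. Nothing in the labels states whether the 3 libraries of a group are separate animals or cultures. Any spread between them that those q-values take into account may be technical. The targeted gene, Smox, had 1.40 FPKM in smox against 23.9 in w1118, and 32.5 FPKM in baboACT against 29.8 in MhcGal4. Measured rows are those that the authors tested, with a unique name, FPKM above 0 in both groups and a mean of at least 1. In smox, 58.1% of 7977 measured rows were called at that q, and in baboACT 43.8% of 8018. The median row lay at -0.14 on the log2 scale in smox and at 0.08 in baboACT, and changes relative to it are given below. Carcass is a bulk sample, in which fewer muscle cells and less RNA per muscle cell cannot be told apart.

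The subunit genes lie at 3 places on autosomes. In the coordinates of the tables, whose build is not named there, the GluRIIA row spans 2L:5553897-5558994 and GluRIIB follows it at 2L:5559342-5563502, after a gap of 347 bases. GluRIIC lies apart at 2L:914090-917805, and the GluRIIE,KaiRIA row spans 3R:16469876-16478172. In the BDGP6 annotation, used here for names and lengths only, CG14017 and GluRIIA are on the same strand and share 66 exonic bases. GluRIIE and GluRIID are also on the same strand and share 122 exonic bases. Each of the 5 subunit genes has 1 annotated transcript, of 11 to 14 exons and 2949 to 3444 bases. No label or header says how the authors formed the FPKM of a row with several genes, and the GluRIIE,KaiRIA value may hold the output of both genes.

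In smox carcasses, the GluRIIA row, GluRIIB and the GluRIIE,KaiRIA row were 2.34-fold to 2.92-fold lower than in w1118. GluRIIC stood close to its reference level. Of the 4 rows, 3 fell and 0 rose. Among all measured rows 39.8% fell and 18.4% rose, so a fall alone was common in this comparison. With a further limit of 1.5-fold, the same 3 rows fell, as did 11.2% of measured rows, and 8.31% rose. With q under 0.01 in place of 0.05, 3 receptor rows again fell, as did 32.2% of measured rows, and 15.7% rose. The median log2 change of the 4 rows was -1.30, against -0.14 over all measured rows.

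GluRIIA encodes the subunit of the larger synaptic currents. Its row stood at 18.8 FPKM in w1118 and at 6.44 FPKM in smox. That is a log2 change of -1.55 (with q = 0.000152 in the authors' deposited table), or -1.40 relative to the median row. It was at rank 201 of 7977 measured rows, counted from the lowest log2 change.

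GluRIIB, which takes the same place in the complex as GluRIIA, stood at 7.90 FPKM in w1118 and at 3.06 FPKM in smox. The log2 change was -1.37 (q = 0.000152 in the authors' deposited table), or -1.23 relative to the median row. Among measured rows it was at rank 249 from the lowest change. GluRIIB and the neighbouring GluRIIA row, which includes any CG14017 reads, thus fell by similar amounts.

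The row of the essential subunits GluRIIE and KaiRIA may hold the output of both genes. It had the highest FPKM of the 4 rows in this experiment, with 69.7 FPKM in w1118 and 29.8 FPKM in smox. Its log2 change was -1.23 (q = 0.000152 in the authors' deposited table), at rank 289 from the lowest change. The authors' test statistic was smaller in size for this row, at -3.16, than for the GluRIIA row, at -13.2, or for GluRIIB, at -8.89. All 3 rows have the lowest p that the authors' deposited table gives, 5e-05.

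GluRIIC, an essential subunit whose gene was once called GluRIII, did not pass the test. It stood at 27.5 FPKM in w1118 and at 25.2 FPKM in smox, a log2 difference of -0.12 (q = 0.108 in the authors' deposited table). Relative to the median row the difference was 0.02, of the opposite sign. GluRIIC lay near the middle of all measured rows, at rank 4170 from the lowest change.

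**Figure D1:**
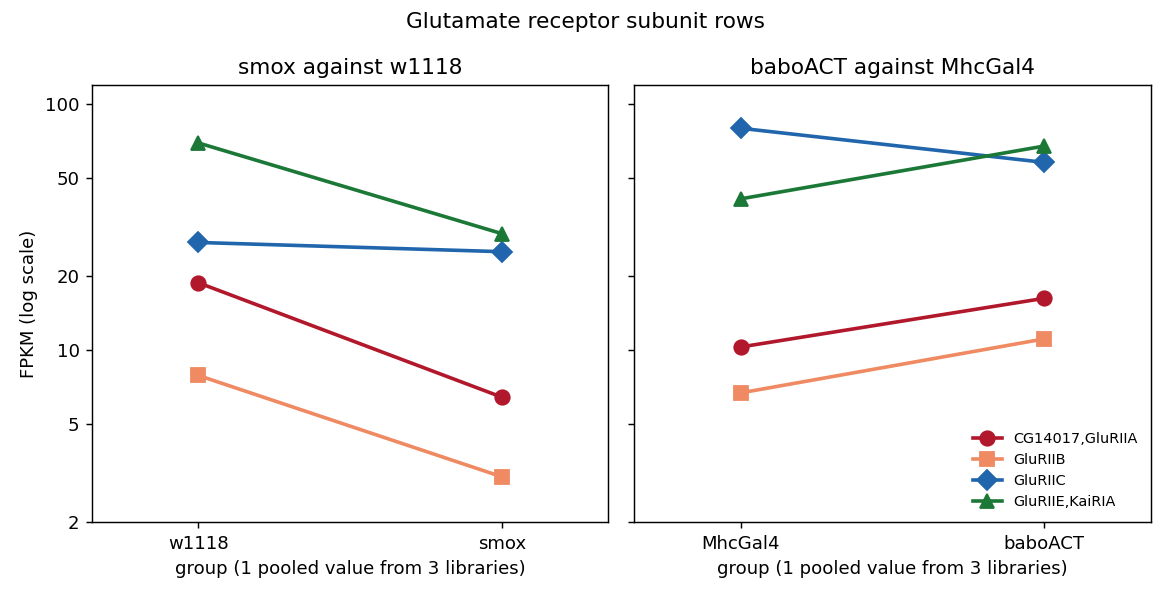
FPKM of the 4 receptor subunit rows in the groups of each experiment, on a log axis; each point is the authors' 1 value per group and lines join the groups of 1 experiment, with no error bars because none can be computed. Left, smox against w1118: 3 rows descend and GluRIIC is nearly level (27.5 and 25.2 FPKM). Right, baboACT against MhcGal4: the same 3 rows ascend and GluRIIC descends from 80.0 to 58.1 FPKM.

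With activated Baboon in muscle, the 3 rows that were lower in smox were higher than in MhcGal4, by 1.58-fold to 1.66-fold, and GluRIIC was lower. Of the 4 rows, 3 rose and 1 fell. Among all measured rows 29.1% rose and 14.7% fell. With q under 0.01 the counts of receptor rows were the same, beside 23.5% and 10.8% of measured rows. With the further limit of 1.5-fold, 3 receptor rows rose and 0 fell, beside 9.64% and 4.09%. The median log2 change of the 4 rows was 0.69, against 0.08 over all measured rows.

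The GluRIIA row went from 10.3 FPKM in MhcGal4 to 16.3 FPKM in baboACT, a log2 change of 0.66 (with q = 0.000217 in the authors' deposited table). GluRIIB went from 6.71 to 11.1 FPKM, a log2 change of 0.73 (with q = 0.000217 in the authors' deposited table). Both rises were well short of the falls in smox on the log2 scale, though the experiments differ in food, temperature and genotype. In rank from the highest change, the GluRIIA row was at 715 and GluRIIB at 629 of 8018 measured rows.

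The GluRIIE,KaiRIA row went from 41.3 to 67.7 FPKM, which put its log2 change of 0.71 at rank 642. The authors' deposited table gives it a q of 0.0061, the highest of the 4 rows, and its test statistic was 2.12, against 4.72 for the GluRIIA row and 5.06 for GluRIIB. As in smox, a change close in size to those of the alternative subunits came with the smallest statistic of the 3 rows.

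GluRIIC went from 80.0 FPKM in MhcGal4 to 58.1 FPKM in baboACT and fell, by 0.46 on the log2 scale (q = 0.000217 in the authors' deposited table). Its place was rank 600 from the lowest change. It was the most abundant of the 4 rows in MhcGal4, ahead of the GluRIIE,KaiRIA row. In baboACT the GluRIIE,KaiRIA row, at 67.7 FPKM, was listed above GluRIIC. Whether neighbours in this order differ beyond their spread cannot be said from group values.

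The GluRIIA row, GluRIIB and the GluRIIE,KaiRIA row thus fell in smox and rose in baboACT. Of 7768 rows measured in both experiments, 19.4% did so. The experiments share no libraries. Rows that fell in smox at least as far as the GluRIIE,KaiRIA row and rose in baboACT at least as far as the GluRIIA row came to 123 of 7768, or 1.58%, and these limits were set by the members' own values, so that share is a description. GluRIIC was in another class, not called in smox and lower in baboACT, which held 6.17% of the rows.

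**Figure D2:**
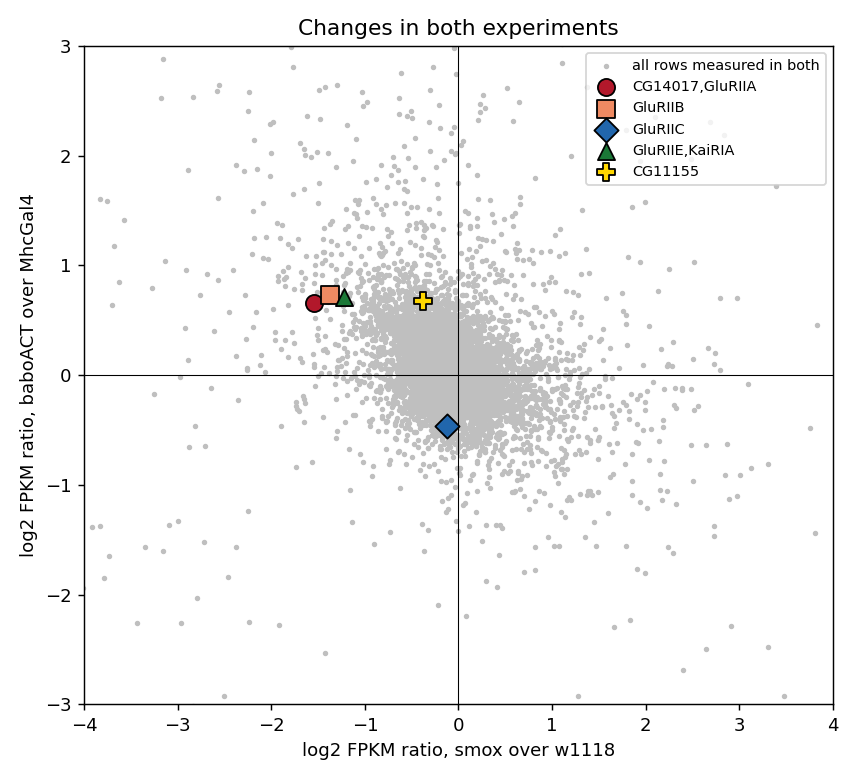
Log2 FPKM ratio of smox over w1118 (horizontal) against that of baboACT over MhcGal4 (vertical) for the 7768 rows measured in both experiments (grey), with the 4 receptor subunit rows and CG11155 marked; 114 rows lie beyond the axes. The GluRIIA row, GluRIIB and the GluRIIE,KaiRIA row sit close together at upper left, and GluRIIC sits below the horizontal line near the vertical one.

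The rows most like each member were sought by distance in the plane of both log2 changes, over the 4 groups. GluRIIB lay at 0.14 from the GluRIIE,KaiRIA row and at 0.19 from the GluRIIA row, whereas GluRIIC lay between 1.61 and 1.81 from the others. Nearest to the GluRIIA row were CG15279, Tsp39D and CG42562, at distances of 0.11 to 0.15. Nearest to GluRIIB were CG31710, tan and Atox1, at 0.067 to 0.11. The GluRIIE,KaiRIA row had CG17109, CG17331 and ImpL2 nearest, at 0.042 to 0.075, of which CG17109 was not called in baboACT (q = 0.14 in the authors' deposited table). ImpL2 encodes a secreted inhibitor of insulin signaling and CG17331 a proteasome core subunit. GluRIIC had CG17065, pen and RpL7-like nearest, at 0.0062 to 0.016.

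The balance between the alternative subunits differed little within an experiment, although each of them changed by 0.66 or more on the log2 scale. The GluRIIA row made up 70.4% of the sum of the GluRIIA row and GluRIIB in w1118 and 67.8% in smox. In the other experiment the share was 60.6% in MhcGal4 and 59.4% in baboACT. The ratio of the GluRIIA row to GluRIIB differed by -0.18 on the log2 scale in smox and by -0.07 in baboACT. These are ratios of FPKM, which is per length, and the GluRIIA row includes any CG14017 reads.

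The balance between the alternative subunits and GluRIIC differed in opposite directions in the experiments. The summed FPKM of the GluRIIA row and GluRIIB was 0.973 of GluRIIC in w1118 and 0.377 in smox. It was 0.213 of GluRIIC in MhcGal4 and 0.472 in baboACT. The GluRIIE,KaiRIA row followed the alternative subunits: it went from 2.54 times GluRIIC in w1118 to 1.18 times in smox, and from 0.516 times in MhcGal4 to 1.17 times in baboACT. Against the summed alternative subunits the same row ranged only from 2.42 to 3.14 over the 4 groups. No test of these ratios was possible with 1 value a group.

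**Figure D3:**
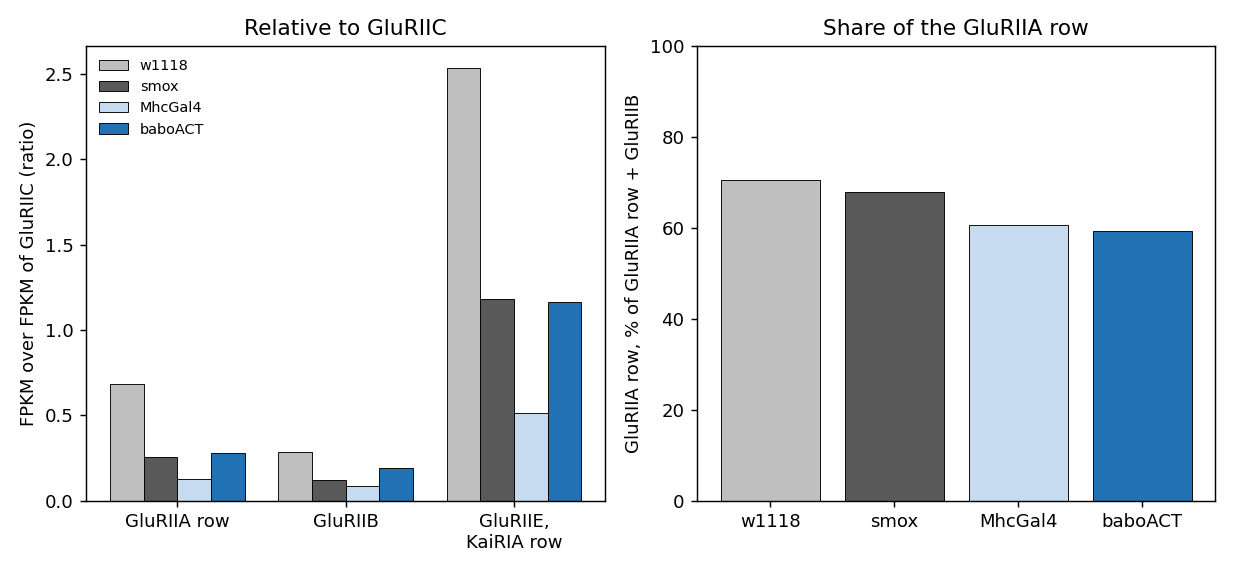
Left, FPKM of the GluRIIA row, GluRIIB and the GluRIIE,KaiRIA row divided by that of GluRIIC in each of the 4 groups (bars from 0, no error available). Every ratio is lower in smox than in w1118 and higher in baboACT than in MhcGal4. Right, the GluRIIA row as a percentage of the GluRIIA row plus GluRIIB, which runs from 59.4% to 70.4%.

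Muscle transcripts were read beside the receptor to show what the tissue as a whole did. Of 20 measured muscle markers in smox, 4 fell and 9 rose, beside 39.8% and 18.4% of all measured rows. The median log2 change of the markers was 0.10. All 20 lay above the GluRIIA row, GluRIIB and the GluRIIE,KaiRIA row in log2 change, and 15 lay above GluRIIC. In baboACT 13 of 19 muscle markers fell and 1 rose, beside 14.7% and 29.1% of all measured rows. The markers had a median of -0.33 and a range from -0.59 to 0.36. All 19 lay below the 3 rows that rose, and 5 lay below GluRIIC. The most abundant markers by mean FPKM were Mlc2 and Argk, a myosin light chain and arginine kinase, in smox and w1118, and Mlc1 and up, a myosin light chain and a troponin, in baboACT and MhcGal4. Act57B is listed at 0 in all 4 groups, Mhc in smox and MhcGal4, and Mlc2 in MhcGal4, and such listed zeros can be failed estimates in muscle tissue. The markers' summed FPKM was 72091 in w1118 and 72323 in smox, and it was 69709 in MhcGal4 and 69081 in baboACT, sums that those zeros lower.

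Set against the geometric mean of the muscle markers above 0, the log2 differences of the 3 rows were larger, and that of GluRIIC in baboACT was smaller. The GluRIIA row then differed by -1.67 in smox and 0.95 in baboACT on the log2 scale, GluRIIB by -1.50 and 1.02, and the GluRIIE,KaiRIA row by -1.35 and 1.00. GluRIIC differed by -0.25 in smox and by -0.17 in baboACT. The fall of GluRIIC with activated Baboon thus lay within the range of the muscle markers. The part of the muscle share of the tissue in these results was not tested.

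**Figure D4:**
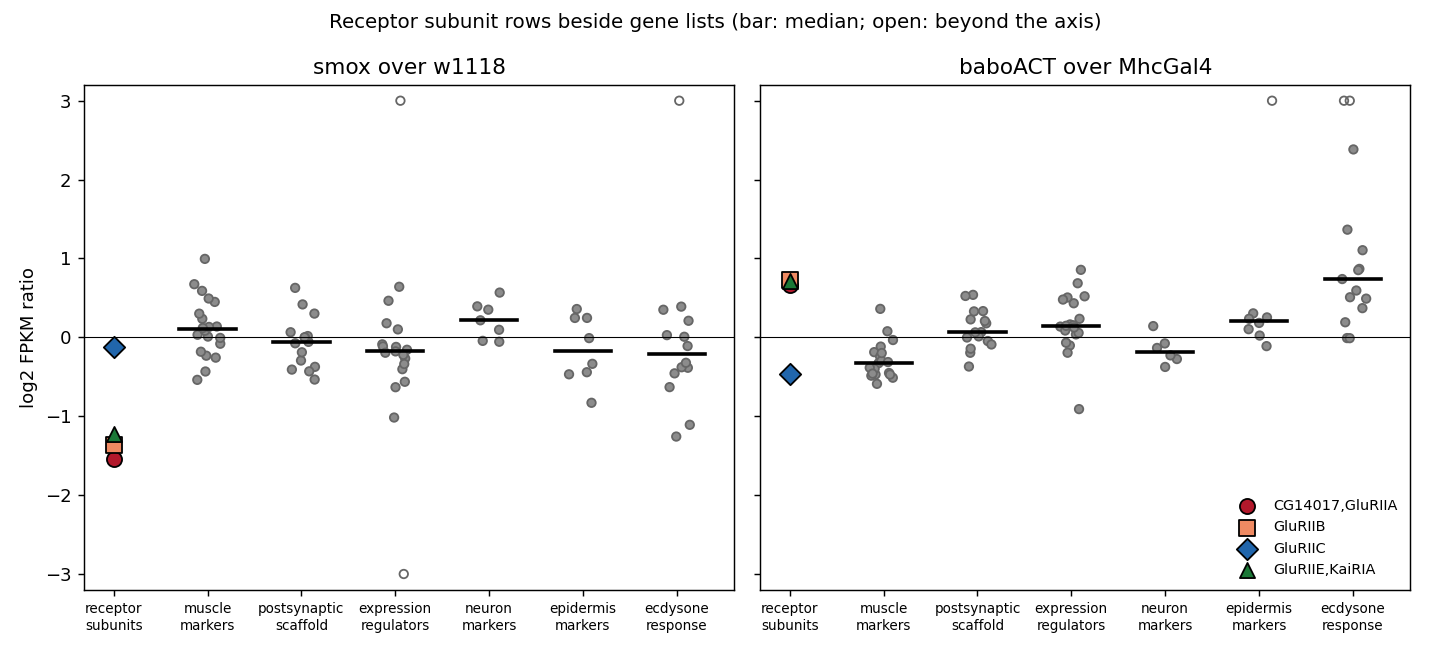
Log2 FPKM ratio of the 4 receptor subunit rows (colored symbols) beside the measured genes of 6 lists (grey points, sideways scatter without meaning; bar, median; open points lie beyond the axis), for smox over w1118 (left) and baboACT over MhcGal4 (right). All muscle markers lie above the 3 lower receptor rows in smox and below the 3 higher rows in baboACT.

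Other glutamate receptor genes were nearly silent in carcass, with the exception of CG11155. Of 11 such genes, which include AMPA-type, NMDA-type, kainate-type and metabotropic receptors, 10 were at 0.226 FPKM or below in every group and none of those was measured. CG11155, an ionotropic receptor gene of the kainate group on chromosome 4, stood at 69.7 FPKM in w1118, level with the GluRIIE,KaiRIA row there, and at 53.7 FPKM in smox. It fell by 0.38 on the log2 scale in smox (q = 0.000152 in the authors' deposited table). In baboACT it rose from 28.3 to 45.0 FPKM, a log2 change of 0.67 (with q = 0.000217 in the authors' deposited table). Its directions were thus those of the GluRIIA row, GluRIIB and the GluRIIE,KaiRIA row, with a smaller fall.

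Neto, the auxiliary protein that receptors need in order to cluster, is split in the tables over the older gene names CG32635 and CG15753, which RefSeq assigns to it. CG15753 stood at 0.883 and 1.17 FPKM in w1118 and smox (q = 0.286 in the authors' deposited table) and at 2.27 and 1.87 FPKM in MhcGal4 and baboACT (q = 0.338). CG32635 stood at 0.713 and 0.712 FPKM in w1118 and smox, where it was not tested, and at 1.68 and 1.47 FPKM in MhcGal4 and baboACT (q = 0.342). Neither row was called in either experiment.

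The genes of receptor clustering and the postsynaptic scaffold changed by less than the GluRIIA row, GluRIIB and the GluRIIE,KaiRIA row did. In smox 6 of 15 measured genes fell and 3 rose, near the 39.8% and 18.4% of all measured rows, with a median log2 change of -0.06. In baboACT 6 of 16 rose and 2 fell, beside 29.1% and 14.7% of all rows, with a median of 0.06. Of the 15 measured in both, 6 were called in both, and 5 of these went the way of the GluRIIA row, as did 19.4% of all rows measured in both: CaMKII, the calcium-dependent kinase; rtGEF, the Pak-binding exchange factor of the postsynaptic density; CASK, a scaffold protein; mtg, which shapes the synaptic cleft; and Fas2, an adhesion molecule. CaMKII fell from 161 to 111 FPKM in smox and rose from 105 to 152 FPKM in baboACT. The log2 changes of rtGEF, mtg, CASK and Fas2 were -0.37, -0.43, -0.41 and -0.19 in smox and 0.54, 0.33, 0.23 and 0.21 in baboACT, all smaller than those of the 3 receptor rows. The sixth, beta-Spec, a spectrin of the subsynaptic membrane skeleton, rose in smox by 0.63 and fell in baboACT by 0.20 on the log2 scale.

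Other scaffold genes changed in 1 experiment. The row of alpha-Spec, shared with dlt, rose in smox by 0.42 on the log2 scale. In baboACT Dg, the dystroglycan gene, rose by 0.33, while Nlg1, a neuroligin, fell with a log2 change of -0.37. The scaffold gene dlg1, which anchors GluRIIB-containing receptors and was picked after its values were seen, was not called in either experiment, at 41.0 and 39.4 FPKM in w1118 and smox (q = 0.455 in the authors' deposited table) and 50.2 and 48.6 FPKM in MhcGal4 and baboACT (q = 0.703).

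Genes known to act on subunit expression, from Activin and BMP signaling to the Dorsal pathway and translational repressors, went 10 down and 4 up among 19 measured in smox, beside 39.8% and 18.4% of all measured rows. The 10 include Smox, the mutated gene itself, and the median log2 change was -0.18 against -0.14 over all rows. In baboACT 7 of 19 rose and 2 fell, beside 29.1% and 14.7% of all rows, with a median of 0.15 against 0.08. Of 19 measured in both experiments, 6 were called in both. Of these 6, pll, Akt1, myo and babo fell in smox and rose in baboACT. That is 4 of 19, beside 19.4% of all rows measured in both. The kinase gene pll, of the Dorsal pathway that promotes GluRIIA at the synapse, fell from 14.8 to 7.30 FPKM and rose from 9.53 to 17.2 FPKM. The muscle-made TGF-beta ligand gene myo fell by 0.34 and rose by 0.52 on the log2 scale, and Akt1 fell by 0.56 and rose by 0.48. The receptor gene babo fell by 0.22 and rose by 0.23, and in baboACT reads of the transgene and of the gene itself could not be told apart. The Activin ligand gene daw went the other way, from 2.24 to 18.0 FPKM in smox and from 26.0 to 13.9 FPKM in baboACT. The translational repressor gene brat rose in both, by 0.64 and 0.51. The gene of its partner pum, which represses GluRIIA translation, stood at 14.1 and 13.1 FPKM in w1118 and smox (q = 0.164 in the authors' deposited table) and rose from 9.21 to 14.8 FPKM in baboACT. The GluRIIA row, pum and brat were thus all higher in baboACT. Translation was not measured, and an action of pum or brat on GluRIIA was not tested.

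Markers of other cells in the carcass moved in several directions beside the receptor rows, and their part in the result was not tested. The counts below stand beside 39.8% of all measured rows that fell and 18.4% that rose in smox. In baboACT these shares were 14.7% and 29.1%. Of the markers found, 0 are listed at 0 FPKM in any group. Neuron markers were low: the 12 found, led by Syx1A and elav, had at most 3.88 FPKM apart from the row that Syx1A shares with 4EHP. Their summed FPKM was 42.8 in w1118 and 44.7 in smox, and it was 42.7 in MhcGal4 and 43.5 in baboACT. Most of each sum was the row of Syx1A and 4EHP, at 29.5 FPKM in w1118 and 28.4 in smox. That row was at 27.6 FPKM in MhcGal4 and 30.5 in baboACT. Every other neuron marker found was listed lower in baboACT than in MhcGal4, and most of them higher in smox than in w1118. In smox 1 of 7 neuron markers rose and 0 fell, and in baboACT 0 of 6 were called. Epidermis markers, led by verm and serp, went 4 down and 3 up of 8 in smox, with a summed FPKM of 1715 and 1914, and 0 down and 3 up of 8 in baboACT, with 1445 and 1801. The larger sum in baboACT rests on Ddc, at 21.4 FPKM in MhcGal4 and 400 in baboACT. There verm stood at 767 and 711 FPKM and serp at 460 and 467 FPKM, and neither was called. Fat body markers, led by Lsp1gamma and Lsp2, went 3 down and 5 up of 8 in smox, from a summed 969 to 1958 FPKM. In baboACT, where Lsp1beta and Lsp2 led, they went 4 down and 2 up of 8, from 1450 to 780 FPKM. Hemocyte markers, led by Nplp2 and PPO1, went 5 down and 3 up of 8 in smox (503 and 762 FPKM) and 4 down and 1 up of 8 in baboACT (303 and 227 FPKM). The larger sum in smox rests on Nplp2, which rose from 264 to 521 FPKM, while most hemocyte markers fell. Tracheal markers, led by Gasp and uif, went 0 down and 2 up of 4 in smox (566 and 731 FPKM) and 1 down and 0 up of 4 in baboACT (864 and 870 FPKM). Tendon markers, led by how and shot, went 2 down and 3 up of 5 in smox (170 and 169 FPKM) and 0 down and 3 up of 5 in baboACT (152 and 196 FPKM). Glia markers, led by nrv2 and Gli, went 3 down and 0 up of 4 in smox (53.2 and 47.6 FPKM) and 1 down and 2 up of 5 in baboACT (38.9 and 45.6 FPKM). The 3 that fell in smox were nrv2, Gli and moody. The glia markers repo and wrapper, at 1.09 FPKM or below in w1118 and smox, were not among the measured rows there.

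Ecdysone-response genes, which mark the approach of metamorphosis, mostly rose in baboACT and went both ways in smox. In baboACT 12 of 15 measured genes rose and 0 fell, beside 29.1% and 14.7% of all measured rows, with a median log2 change of 0.74 against 0.08. In smox 7 of 14 fell and 4 rose, beside 39.8% and 18.4% of all measured rows, with a median of -0.22 against -0.14. Of 14 measured in both, 9 were called in both, and 7 of these fell in smox and rose in baboACT. That is 7 of 14, beside 19.4% of all rows measured in both. The 7 were EcR, br, Eip74EF, Eip75B, Hr39, Eip71CD and ImpE2. EcR, the hormone receptor gene, went from 49.7 to 23.0 FPKM in smox and from 34.9 to 49.6 FPKM in baboACT. For br the values went from 91.6 to 38.3 FPKM and from 59.6 to 128 FPKM. The other 2 of those 9, Eip78C and ImpE1, rose in both, and Eip78C, a nuclear receptor gene, rose from 0.846 to 15.9 FPKM in smox. In baboACT the largest changes on the list were those of Eip78C, Hr46, ImpE2 and ImpE3, of which Eip78C rose by 5.56, ImpE2 by 2.38 and ImpE3 by 1.37 on the log2 scale, and Hr46 rose from 0.142 to 2.27 FPKM. Hr46 also rose in smox, from 0.388 to 1.36 FPKM, but is outside the counts there because its mean was under 1 FPKM. Ddc, an epidermis marker that ecdysone is known to induce, fell from 239 to 135 FPKM in smox and rose from 21.4 to 400 FPKM in baboACT. This list was added, and Ddc was singled out, after values were seen. The part of developmental timing in the receptor result was not tested.

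Rows on either side of the subunit genes, within 20 kb, were read beside them. Around the GluRIIA row and GluRIIB, 7 of 14 neighbouring rows were measured, and 5 were listed at 0 in both groups in smox, among them CG14013, 48 bases before the GluRIIA row. In smox 3 of the 7 fell, by at most 0.65 on the log2 scale, and 0 rose, beside 39.8% and 18.4% of all measured rows. In baboACT 1 of the 7 fell and 2 rose, beside 14.7% and 29.1% of all measured rows. The nearest measured row, Oscillin, the glucosamine-6-phosphate isomerase gene 4282 bases away, fell by 0.65 in smox and rose by 1.87 in baboACT. Lam, the lamin gene next to it, fell in both experiments, with log2 changes of -0.32 and -0.18.

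Beside the GluRIIE,KaiRIA row, Lrrk, a kinase gene 19 bases away, fell by 0.38 in smox and rose by 0.34 in baboACT on the log2 scale, less than the receptor row did. Of the 3 measured neighbours there, 2 fell and 0 rose in smox, beside 39.8% and 18.4% of all measured rows. In baboACT 2 of the 3 rose and 0 fell, beside 29.1% and 14.7% of all measured rows. GluRIIC had 1 measured neighbour, the storage protein gene Lsp1beta, 12771 bases away, which went from 208 to 459 FPKM in smox and from 460 to 187 FPKM in baboACT. Lsp1beta thus rose in smox, where GluRIIC was not called, and both fell in baboACT.

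**Figure D5:**
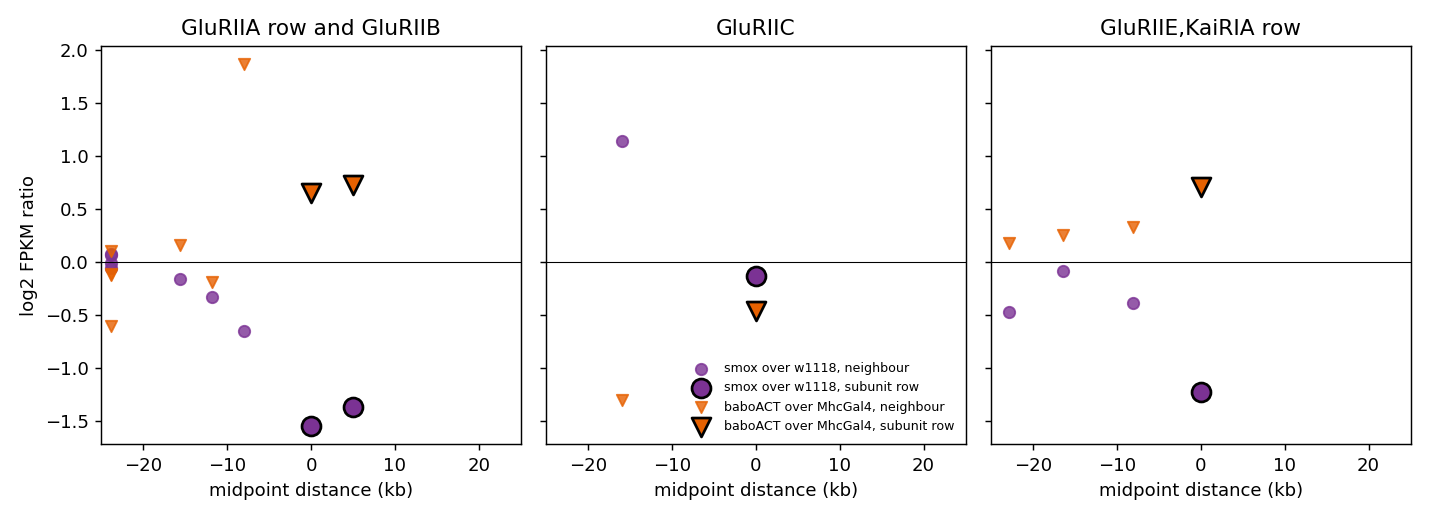
Log2 FPKM ratio of the receptor subunit rows (large outlined symbols) and of measured rows within 20 kb (small symbols), against the distance between midpoints in kb, for smox over w1118 (circles) and baboACT over MhcGal4 (triangles). In the left panel the GluRIIA row is at 0 and GluRIIB to its right. In smox every subunit row lies below the small smox symbols of its panel. In baboACT Oscillin, at 1.87, lies above the GluRIIA row, at 0.66, and GluRIIB, at 0.73. GluRIIC and the GluRIIE,KaiRIA row lie above the small baboACT symbols of their panels.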

How the data were processed

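Libraries came from TRIzol RNA and the TruSeq kit, per the labels' protocols. Per the submitters' processing notes, Cufflinks and Cuffdiff were used. Versions, aligner, annotation, genome build, strand setting: not given in the sources used here. For each experiment the authors deposited 1 table, with 1 FPKM per group and 0 columns of single libraries, their log2 fold change, a score (the test statistic), the p-value and the q-value. The lowest p was 5e-05, which corresponds to q-values of 0.000152 in smox and 0.000217 in baboACT. The deposited log2 fold changes hold error text in 423 and 480 cells, none of them in rows of the receptor subunits.

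Log2 changes were recomputed from FPKM with no pseudocount, using pandas 2.3.3 and numpy 2.4.6 in Python 3.11.15, and the step that counts calls was checked on simulated tables with preset q-values, which tests the arithmetic only. Calls use the authors' q under 0.05; limma, foreseen for values per library, was not run. Members, lists and alternatives were chosen with earlier results of these data known. The ecdysone list was added, and the aliases of CG5621 and CG11155 were put right, after the files were seen. Named from each list were genes called in both experiments and the 4 largest called changes in each; from marker lists, the 2 highest; for likeness, the 3 nearest rows. List symbols were matched by name, older name or RefSeq synonym on the same chromosome arm.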

Additional observations from a re-analysis of the deposited data

How the results depend on the processing

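The GluRIIA row, GluRIIB and the GluRIIE,KaiRIA row kept their directions in both experiments, within 1.5 times of the reported log2 change, with a pseudocount of 1, with the median row set to no change, with FPKM rescaled to a common sum, relative to muscle markers, and in the authors' log2 fold changes. GluRIIC depended on scaling. In smox its log2 difference became 0.017 with the median row at no change and -0.25 relative to muscle markers. In baboACT it became -0.17 relative to muscle markers, and with a further limit of 1.5-fold the count of rows that fell there became 0. The cause was not tested. With q under 0.01 the neuron markers called in smox became 0 and the glia markers 1. With a mean FPKM of at least 5 the neuron markers called in smox became 0 and the glia markers called in baboACT 1. All other counts stayed within 1.5 times. Leaving out a replicate was not run, since the tables hold group values. No paired analysis was possible because no column holds a single library. Depth is unknown and the authors' q does not measure precision, so how precisely low rows such as GluRIIB in smox were measured is not known.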

Other observations

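The listed FPKM of the receptor rows stood in different proportions in the reference groups. GluRIIC was listed at 27.5 FPKM in w1118 and at 80.0 FPKM in MhcGal4, while the GluRIIA row was at 18.8 and 10.3 FPKM and the GluRIIE,KaiRIA row at 69.7 and 41.3 FPKM. GluRIIB was nearer to level, at 7.90 and 6.71 FPKM. Per 1000 FPKM of the geometric mean of muscle markers, GluRIIC stood at 19.6 in w1118 and 52.6 in MhcGal4, and the GluRIIA row at 13.4 and 6.78. The tables were made separately, from larvae that differ in food, temperature and genotype, and the marker means rest on 20 markers in w1118 and 19 in MhcGal4. The FPKM of all rows summed to 962767 in w1118 and to 755064 in MhcGal4, so the scales differ. No test across the tables was made.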
